A study of Homo sapiens with 18 samples.

Results

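PAX5, SPIB, SPI1, EBF1, IRF8, POU2AF1, POU2F2, IKZF1, BACH2 and MEF2C encode transcription factors or a coactivator of the B cell lineage. These 10 genes were chosen by symbol from the 60483 gene identifiers of the count tables, and all 10 were among the 16122 genes with enough reads to be tested. RNA sequencing was run on HAIR-M, a human cell line of marginal zone lymphoma, a lymphoma of B cells. Cells received the solvent DMSO or copanlisib, an inhibitor of phosphoinositide 3-kinase (PI3K), at 5 nM for 4, 8 or 12 h, and each of the 6 groups held 3 libraries. The question of the study was how copanlisib changes the transcriptome of these cells. HAIR-M is 1 cell line, and no source used here says whether the libraries of a group came from separate cultures, so that p-values measure the spread between these libraries. In bulk RNA, fewer cells that express a gene and less RNA per cell cannot be told apart.

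EBF1 and PAX5 commit progenitors to the B lineage and hold mature B cells in it, PAX5 by activating B cell genes and repressing genes of other lineages. SPI1 (PU.1) and SPIB are closely related ETS-domain factors that share DNA sites, and both work with IRF8 on composite ETS-IRF elements. POU2F2 (OCT2) binds the octamer of immunoglobulin promoters and recruits the coactivator POU2AF1 (OBF1), IKZF1 (Ikaros) is a zinc finger factor of all lymphoid cells, MEF2C acts downstream of B cell receptor signalling, and BACH2 represses the plasma cell programme.

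Upstream sequences are shown for PAX5, SPIB and EBF1, genes whose levels differed between copanlisib and DMSO. Each had 1 window of 250 bases before a RefSeq start, which overlapped no exon of the GENCODE 29 annotation. IKZF1 and MEF2C had several windows, some of them also free of exons, that are not shown. The letters come from RefSeq on GRCh38.p14, where 8 of the 10 genes matched a window (not SPI1 and POU2AF1). They are written in the direction of the gene, and capitals mark matches to a searched motif.
SPIB promoter, chr19:50418688-50418937, plus strand: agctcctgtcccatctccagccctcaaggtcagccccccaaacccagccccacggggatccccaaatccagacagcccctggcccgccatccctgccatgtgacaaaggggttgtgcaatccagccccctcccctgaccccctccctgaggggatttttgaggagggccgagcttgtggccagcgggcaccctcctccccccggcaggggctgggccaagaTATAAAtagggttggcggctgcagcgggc
PAX5 promoter, chr9:37034269-37034518, minus strand: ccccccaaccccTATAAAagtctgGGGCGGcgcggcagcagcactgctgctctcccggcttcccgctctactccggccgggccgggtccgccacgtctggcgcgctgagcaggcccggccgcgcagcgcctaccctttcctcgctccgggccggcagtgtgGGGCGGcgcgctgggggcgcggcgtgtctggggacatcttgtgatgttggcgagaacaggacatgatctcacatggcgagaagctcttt
EBF1 promoter, chr5:159097957-159098206, minus strand: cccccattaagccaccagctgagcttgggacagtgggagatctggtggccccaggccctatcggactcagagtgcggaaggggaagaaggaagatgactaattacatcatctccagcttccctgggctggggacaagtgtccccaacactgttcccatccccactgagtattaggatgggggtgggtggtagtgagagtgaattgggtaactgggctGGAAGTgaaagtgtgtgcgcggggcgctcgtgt
In SPIB the capitals are a TATA box, TATAAA, that begins 29 bases before the start. In PAX5 they are a TATAAA at 238 bases and the GC box GGGCGG at 226 and at 89 bases before the start. In EBF1 they are the ETS core GGAAGT at 33 bases before the start, in a window that lies between exons inside the span of the gene. These matches are common strings: TATAAA was found in 10.7%, GGGCGG in 42.6% and GGAAGT in 19.5% of all 35116 windows of the same length, on either strand. The octamer ATGCAAAT (1.63% of windows) and the FOXO string GTAAACA (2.98%) were in none of these 3 windows. A window of MEF2C that is not shown held an octamer match on the opposite strand, at 60 bases before its start.

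The libraries held 13587017 to 25566761 reads assigned to genes. In 2 of the copanlisib libraries at 4 h, replicates 1 and 2, 5.22 to 8.73% of the reads were unmapped against 1.74 to 2.82% in the other 16 libraries, and 12.35 to 12.56% of their gene reads were mitochondrial against 9.07 to 10.5%. At 4 h the log2 fold change also moved with the GC content of the genes, with a median of 0.12 in the fifth of genes lowest in GC and -0.21 in the highest. With replicate 3 as the only copanlisib library at 4 h, these medians were -0.03 and 0.003. The trend ran the other way later, with medians of -0.08 (lowest GC) and 0.09 (highest GC) at 8 h. At 12 h they were -0.06 and 0.05. In the fit with replicate 3 alone these later medians stayed, at -0.08 and 0.09 and at -0.06 and 0.05. Every 4 h result of the 10 genes is given with the replicate 3 fit, or with a GC offset, where its value moved by over 1.5 times or its call changed. All 13 B cell markers were tested, and their summed level, in counts scaled to library size (CPM), was 7137 to 8137, led by CD74. T and NK cell markers summed to 453 to 705 CPM, most of it TCF7, and CD3D and CD3G were at 0 in all 18 libraries. Myeloid markers summed to 12.2 to 21.2 CPM. The extraction protocol in the labels names retinas, whose 12 markers summed to 8.77 to 14.02 CPM, with RPE65 at 0.

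IRF8 was the most abundant of the 10 transcripts and BACH2 by far the rarest. On the length-scaled level (RPKM, counts scaled to exon length and library size) in DMSO at 4 h, the order was IRF8 at 145, POU2AF1 at 61.1, PAX5 at 28.2, MEF2C at 25.9, SPI1 at 23.2, SPIB at 14.4, POU2F2 at 13.5, EBF1 at 8.68, IKZF1 at 7.77 and BACH2 at 0.032. SPIB and POU2F2 overlapped between libraries, and no other neighbours in that order did. In copanlisib at 12 h, IRF8 at 96.6 RPKM (94.9 to 98.9) and POU2AF1 at 92.0 RPKM (90.8 to 92.8) had come close to each other. There POU2F2 at 19.97 and SPI1 at 19.7 overlapped, as did EBF1 at 13.6 and SPIB at 13.3, and BACH2 stood at 0.013 RPKM. SPI1, which is also the key factor of myeloid cells, was 1.61 times as abundant per length as SPIB in DMSO at 4 h and 2.42 times in DMSO at 8 h.

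**Figure D1:**
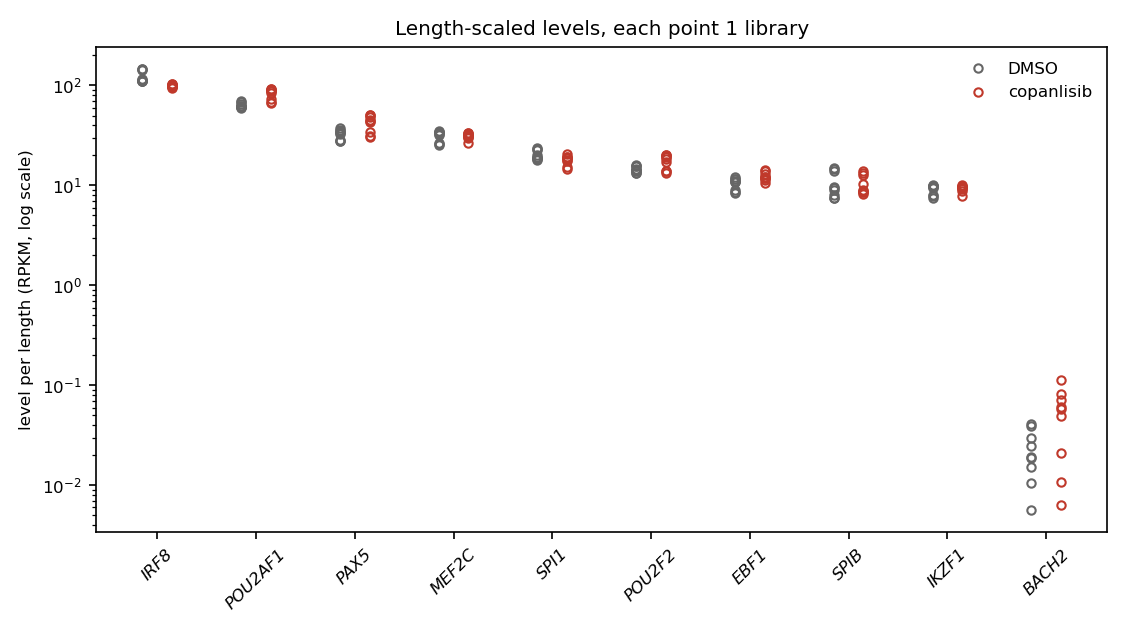
Length-scaled level (RPKM, log axis) of the 10 genes, ordered by their mean over 18 libraries, with 1 point per library, DMSO in grey and copanlisib in red. IRF8 and POU2AF1 lie at the top and BACH2 lies below the other 9 in every library.

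Copanlisib changed 9 of the 10 genes at 4 h, 5 at 8 h and 6 at 12 h (edgeR quasi-likelihood test, Benjamini-Hochberg adjusted p under 0.05 over 16122 genes). Over all genes the same call was made for 38.4% at 4 h, 33.1% at 8 h and 30.3% at 12 h. At 4 h PAX5, EBF1, POU2AF1, IKZF1, BACH2 and MEF2C rose, and SPIB, SPI1 and IRF8, the 3 members that meet on ETS-IRF elements, fell. At 8 h PAX5, POU2AF1, POU2F2 and BACH2 rose and IRF8 fell. At 12 h PAX5, SPIB, EBF1, POU2AF1 and POU2F2 rose and IRF8 fell. BACH2, counted at 4 and 8 h, passed the low count filter only through copanlisib libraries. Each of the 10 was called at 1 or more times, as were 58.4% of all genes. PAX5 and POU2AF1 rose at all 3 times, as did 4.99% of all genes, and IRF8 fell at all 3 times, as did 8.32% of all genes. The median log2 fold change of the 10 genes was 0.15 at 4 h, 0.12 at 8 h and 0.23 at 12 h, beside 0.009, 0.015 and 0.004 over all genes. In libraries that did not overlap between copanlisib and DMSO, the 10 genes counted 7 at 4 h, 7 at 8 h and 6 at 12 h, beside 38.9%, 50.7% and 46.0% of all genes.

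**Figure D2:**
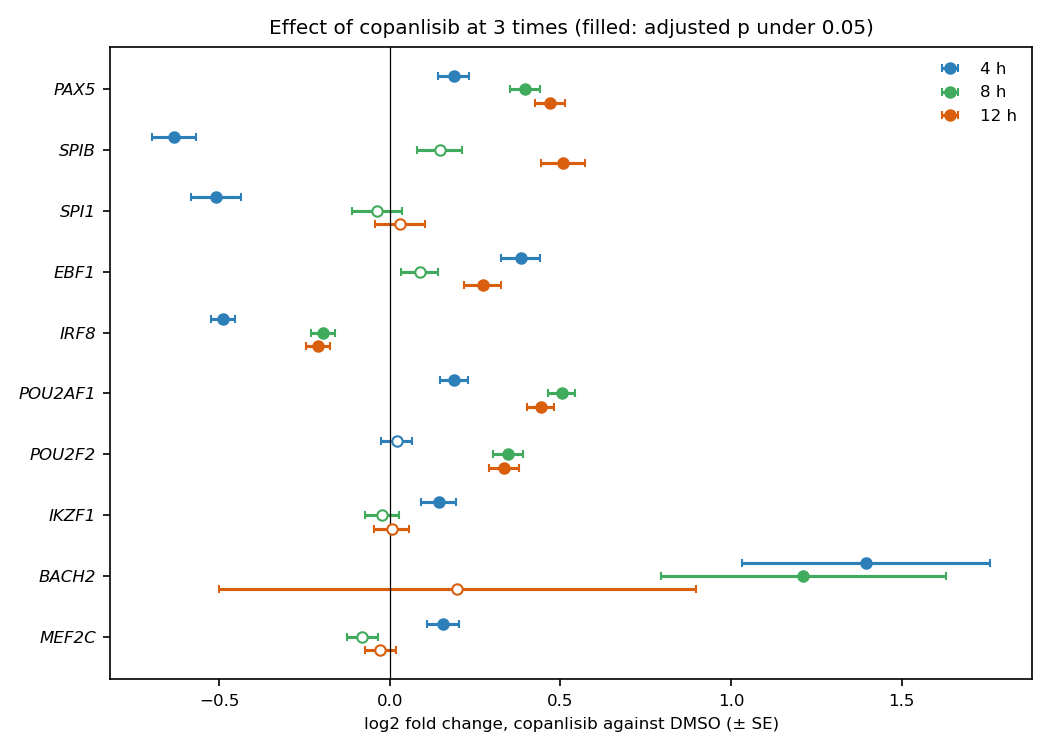
Log2 fold change of copanlisib against DMSO (horizontal axis, bars ± SE) for each gene at 4, 8 and 12 h. Filled points passed adjusted p 0.05. SPIB moves from -0.63 to 0.51, IRF8 lies below 0 at each time, and PAX5 and POU2AF1 lie above 0 at each time.

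SPIB changed direction between the times. This gene (ENSG00000269404.5, hg38 chr19:50418938-50431313) acts in lymphoid cells, where it keeps B cells responsive to their receptor. In DMSO its 3 libraries had 62.1, 59.4 and 63.7 CPM at 4 h, 34.7, 31.9 and 32.1 CPM at 8 h and 38.5, 40.9 and 40.6 CPM at 12 h. In copanlisib they had 38.1, 37.0 and 44.4 CPM at 4 h, 35.5, 37.7 and 36.4 CPM at 8 h and 59.7, 54.2 and 56.7 CPM at 12 h. The groups did not overlap at any time: copanlisib lay below DMSO at 4 h, slightly above it at 8 h and clearly above it at 12 h. The fall at 4 h was 35.5% (log2 fold change -0.63 ± 0.06 SE, adjusted p = 1.48e-08). A fit that kept replicate 3 alone of the 4 h copanlisib libraries gave -0.47 ± 0.07. The value of 0.15 ± 0.07 at 8 h did not pass (adjusted p = 0.095), though it did in a fit of the 6 libraries of 8 h (0.14, adjusted p = 0.0247), and at 12 h SPIB rose by 42.3% (0.51 ± 0.06, adjusted p = 7.69e-07). The average over the 3 times was 0.008 ± 0.04.

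The effect on SPIB at 12 h exceeded that at 4 h by 1.14 ± 0.09 on the log2 scale (adjusted p = 2.49e-08). Its p was the smallest of all 16122 genes, in this comparison and in the joint test of a difference between the 3 times. With replicate 3 as the only 4 h copanlisib library the difference was 0.98 (adjusted p = 5.49e-11) and ranked 2 of 17007 genes. In the DMSO cells the SPIB level fell by 46.5% from 4 to 8 h (log2 fold change -0.90 ± 0.07, adjusted p = 1.13e-10), a step in which 29.8% of all genes changed. At 4 h copanlisib cells had a mean of 39.8 CPM ± 4.00 (SD, n = 3), beside 32.9 ± 1.52 and 39.99 ± 1.33 CPM in DMSO cells at 8 and 12 h.

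SPI1, the relative of SPIB (ENSG00000066336.10, hg38 chr11:47354860-47378576), fell at 4 h only. DMSO libraries had 47.7, 49.3 and 47.1 CPM at 4 h and copanlisib libraries 30.4, 31.4 and 39.6 CPM. The 2 lower copanlisib values came from replicates 1 and 2, and the groups did not overlap. The fall was -0.51 ± 0.07 on the log2 scale (adjusted p = 4.03e-06). It shrank to -0.28 ± 0.07 with replicate 3 alone (adjusted p = 0.00404) and to -0.19 ± 0.05 with a GC offset (adjusted p = 0.00236), and SPI1 is in the fifth of genes highest in GC. At 8 h DMSO libraries had 37.0 to 40.0 CPM and copanlisib libraries 36.6 to 38.7 CPM, and at 12 h 38.4 to 41.8 and 39.1 to 42.6 CPM. The log2 fold changes of -0.04 ± 0.07 and 0.03 ± 0.07 did not pass (adjusted p = 0.738 and 0.804), though with a GC offset the 8 h value of -0.13 did (adjusted p = 0.0309).

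IRF8 (ENSG00000140968.9, hg38 chr16:85898803-85922609), an interferon regulatory factor of B cells and myeloid cells, fell at every time. DMSO libraries had 753, 741 and 749 CPM at 4 h, 599, 575 and 579.5 CPM at 8 h and 577, 576 and 578 CPM at 12 h. Copanlisib libraries had 538, 526 and 534 CPM at 4 h, 505, 514 and 514 CPM at 8 h and 511, 496 and 490 CPM at 12 h. Each copanlisib library lay below each DMSO library of its time. IRF8 fell by 28.7% at 4 h (-0.49 ± 0.04, adjusted p = 4.45e-11), by 12.6% at 8 h (-0.19 ± 0.04, adjusted p = 0.000101) and by 13.5% at 12 h (-0.21 ± 0.04, adjusted p = 4.81e-05). At 4 h it had -0.48 with replicate 3 alone and -0.47 with a GC offset. The effect was smaller at 12 h than at 4 h by 0.28 ± 0.05 (adjusted p = 0.000599), over a time in which DMSO cells lost 22.8% of their IRF8 level.

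PAX5 (ENSG00000196092.11, hg38 chr9:36833275-37034185), the master regulator of B cell identity, rose at every time. DMSO libraries had 262, 266 and 262 CPM at 4 h, 314, 321 and 308 CPM at 8 h and 333, 346 and 328 CPM at 12 h. Copanlisib libraries had 286, 292 and 321 CPM at 4 h, 401, 424 and 416 CPM at 8 h and 473, 447 and 473 CPM at 12 h. All 3 pairs of groups were separate, with the widest gap at 12 h. The log2 fold changes were 0.19 ± 0.04 at 4 h (adjusted p = 0.00151), 0.40 ± 0.04 at 8 h (adjusted p = 7.56e-08) and 0.47 ± 0.04 at 12 h (adjusted p = 5.5e-09). With replicate 3 alone the 4 h value was 0.29 ± 0.05, and the increase from 4 to 12 h, 0.28 ± 0.06 with all libraries (adjusted p = 0.00321), was then 0.18 and did not pass (adjusted p = 0.0789). In a fit of the 6 libraries of 4 h alone, PAX5 did not pass at that time (0.18, adjusted p = 0.0625).

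EBF1 (ENSG00000164330.15, hg38 chr5:158695916-159099761), which acts before and with PAX5, rose at 4 and 12 h. DMSO libraries had 55.9, 53.3 and 51.7 CPM at 4 h, 68.3, 66.3 and 74.3 CPM at 8 h and 72.1, 66.2 and 70.8 CPM at 12 h. Copanlisib libraries had 70.7, 72.9 and 65.9 CPM at 4 h, 73.1, 74.2 and 74.2 CPM at 8 h and 85.4, 87.3 and 80.1 CPM at 12 h. Only at 8 h did the groups overlap, through 1 high DMSO library. EBF1 was higher by 30.5% at 4 h (0.38 ± 0.06, adjusted p = 6.03e-06; 0.30 with replicate 3 alone) and by 20.7% at 12 h (0.27 ± 0.06, adjusted p = 0.000401). The 8 h value of 0.09 ± 0.05 did not pass (adjusted p = 0.239), and with a GC offset it was 0.15 and did (adjusted p = 0.00691).

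POU2AF1 (ENSG00000110777.10, hg38 chr11:111352252-111455630), the B cell coactivator of octamer factors, rose at every time. DMSO libraries had 461, 450 and 450 CPM at 4 h, 453, 446 and 462 CPM at 8 h and 506, 513 and 488 CPM at 12 h. Copanlisib libraries had 493, 510 and 547 CPM at 4 h, 629, 652 and 647 CPM at 8 h and 688, 674 and 685 CPM at 12 h. The groups were separate at each time, narrowly at 4 h. The log2 fold changes were 0.19 ± 0.04 at 4 h (adjusted p = 0.00056), 0.50 ± 0.04 at 8 h (adjusted p = 2.88e-10) and 0.44 ± 0.04 at 12 h (adjusted p = 3.53e-09). The 4 h value was 0.27 with replicate 3 alone, and in a fit of the 6 libraries of 4 h it did not pass (0.18, adjusted p = 0.0514).

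POU2F2 (ENSG00000028277.19, hg38 chr19:42086110-42196585), the octamer factor that POU2AF1 binds, rose at 8 and 12 h. DMSO libraries had 127, 120 and 120 CPM at 4 h, 128, 129 and 134 CPM at 8 h and 143, 147 and 142 CPM at 12 h. Copanlisib libraries had 126, 121 and 126 CPM at 4 h, 157, 173 and 166 CPM at 8 h and 183, 183 and 177 CPM at 12 h. The copanlisib libraries lay inside the DMSO range at 4 h and above it later. The 4 h value was 0.02 ± 0.05 (adjusted p = 0.761), and neither 0.04 ± 0.06 with replicate 3 alone (adjusted p = 0.662) nor 0.09 ± 0.04 with a GC offset (adjusted p = 0.103) passed. POU2F2 rose by 27.1% at 8 h (0.35 ± 0.04, adjusted p = 8.26e-07) and by 26.1% at 12 h (0.33 ± 0.04, adjusted p = 1.57e-06). The effect at 12 h exceeded that at 4 h by 0.31 ± 0.06 (adjusted p = 0.00155).

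BACH2 (ENSG00000112182.13, hg38 chr6:89926529-90296908) was barely detected, with 133 reads over all 18 libraries. The DMSO libraries of 4 h had 2, 8 and 7 reads, those of 8 h had 4 each, and those of 12 h had 1, 3 and 2. The copanlisib libraries of 4 h had 23, 14 and 15 reads, those of 8 h had 10, 14 and 15, and those of 12 h had 2, 1 and 4. Copanlisib was above DMSO in every library at 4 and 8 h, with 52 against 17 and 39 against 12 reads in all, and the groups overlapped at 12 h with 7 against 6. No DMSO library had over 8 reads, so BACH2 passed the low count filter only through copanlisib libraries, where it was high. Its place among the tested genes is therefore no support for a rise. The fitted log2 fold changes were 1.40 ± 0.36 at 4 h (adjusted p = 0.00333), 1.21 ± 0.42 at 8 h (adjusted p = 0.027) and 0.20 ± 0.70 at 12 h (adjusted p = 0.876). With replicate 3 alone the 4 h value was 1.27 ± 0.56 and did not pass (adjusted p = 0.0995). At 8 h the call was lost without DMSO replicate 1 or 2, or without copanlisib replicate 2 or 3, with adjusted p from 0.0676 to 0.131. The 8 h call was also lost without the low count filter (1.22, adjusted p = 0.0811) and with counts without strand (1.10, adjusted p = 0.0559). Whether the effect differed between the times was not detectable at this depth (12 h minus 4 h -1.20 ± 0.84, adjusted p = 0.385).

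IKZF1 (ENSG00000185811.15, hg38 chr7:50304068-50405101) and MEF2C (ENSG00000081189.12, hg38 chr5:88717117-88904257) were called at 4 h and not later. IKZF1 encodes Ikaros, and it had 81.8, 87.9 and 85.0 CPM in DMSO and 96.4, 99.6 and 85.7 CPM in copanlisib at 4 h, where replicate 3 lay inside the DMSO range. The call at 4 h (0.14 ± 0.05, adjusted p = 0.0297) was lost with replicate 3 alone, at 0.01 ± 0.06 (adjusted p = 0.912). Its values at 8 h (-0.02 ± 0.05, adjusted p = 0.772) and 12 h (0.006 ± 0.05, adjusted p = 0.949) did not pass.

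MEF2C had 314, 306 and 295 CPM in DMSO and 357, 351 and 312 CPM in copanlisib at 4 h, again with replicate 3 inside the DMSO range. Its call (0.16 ± 0.05, adjusted p = 0.00848) was lost with replicate 3 alone, at 0.03 (adjusted p = 0.69), and with a GC offset, at 0.04 (adjusted p = 0.274). MEF2C is in the fifth of genes lowest in GC. At 8 h the 3 copanlisib libraries, at 367 to 374 CPM, lay just below the DMSO libraries at 378 to 402 CPM, a difference of -0.08 ± 0.05 that did not pass (adjusted p = 0.186). In a fit of the 6 libraries of 8 h it passed, at -0.08 (adjusted p = 0.0212). The 12 h value was -0.03 ± 0.05 (adjusted p = 0.704).

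**Figure D3:**
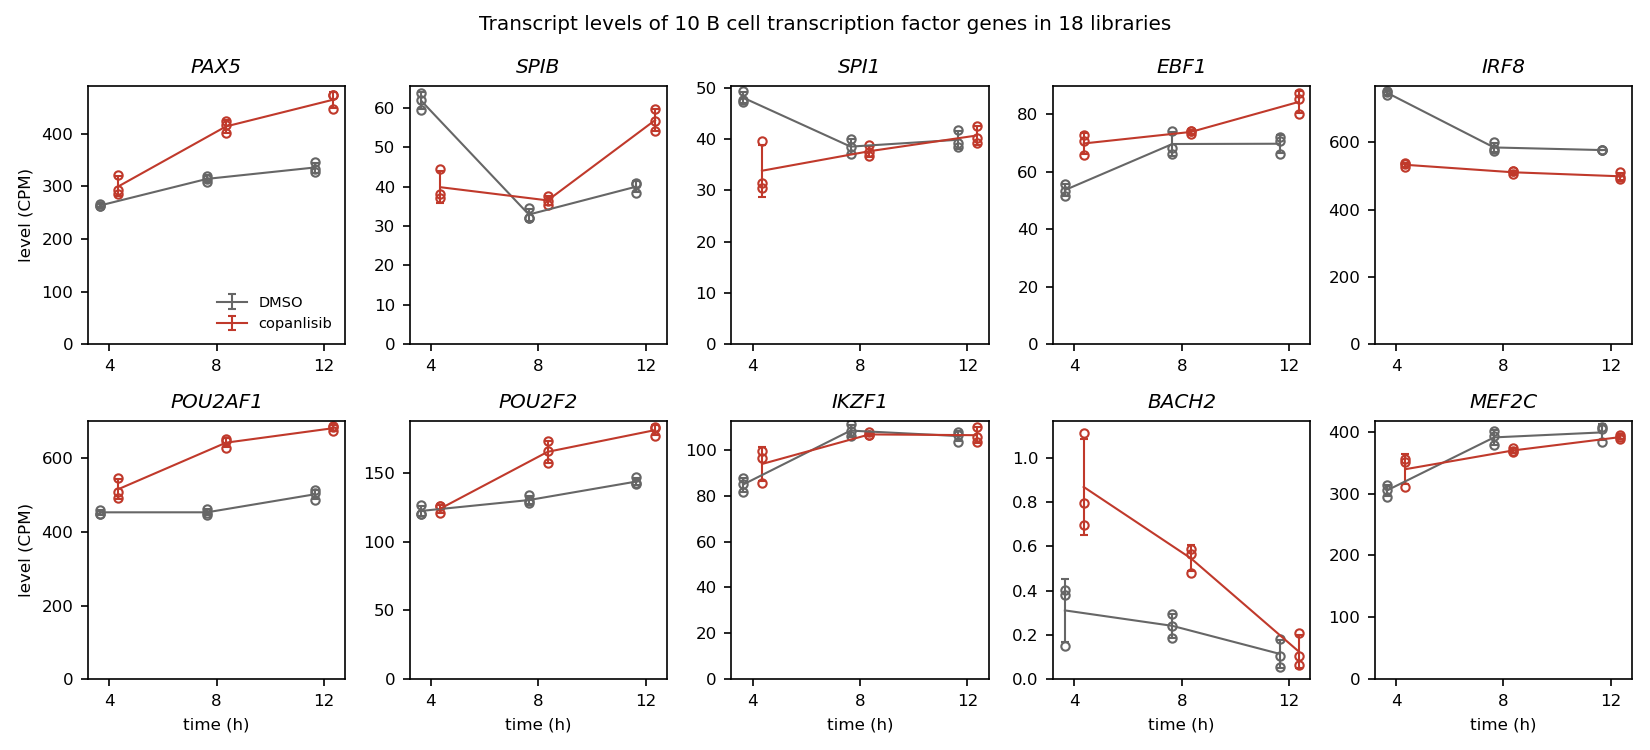
Level (CPM, each vertical axis from 0) of each gene by time, with 1 point per library and lines through the means ± SD of 3 libraries, DMSO in grey and copanlisib in red. SPIB shows the lines crossing between 4 and 12 h, and BACH2 stays below 1.2 CPM throughout.

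**Figure D4:**
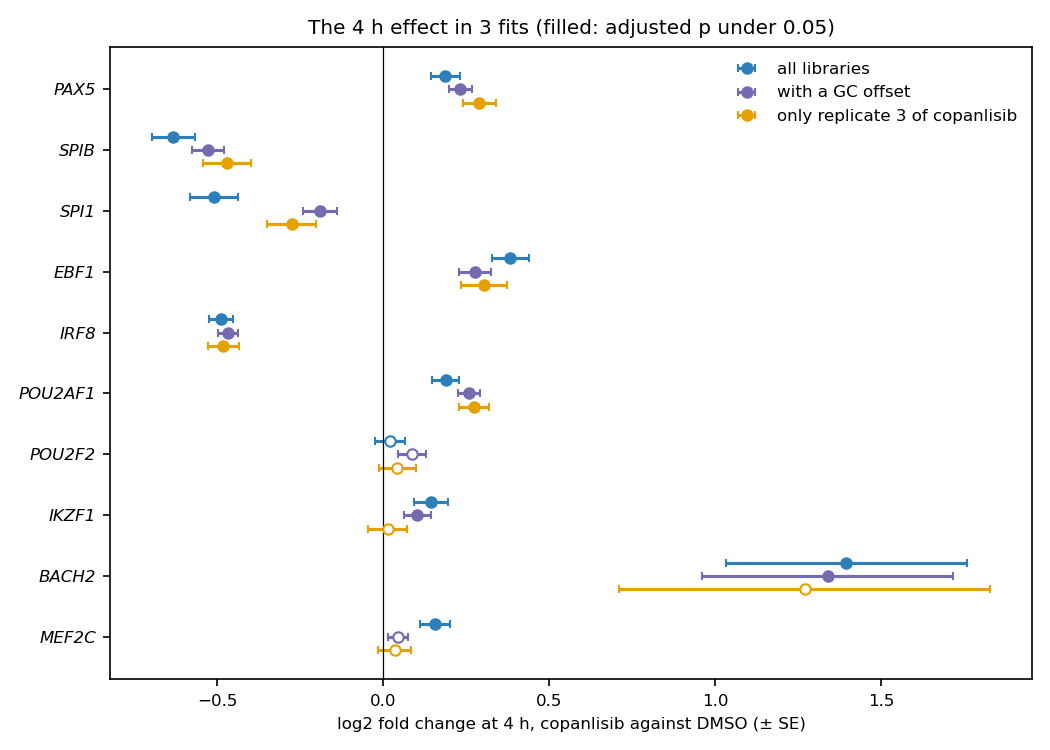
Log2 fold change at 4 h (horizontal axis, bars ± SE) in 3 fits: all libraries, with a GC offset, and with replicate 3 as the only 4 h copanlisib library, where filled points passed adjusted p 0.05. With replicate 3 alone IRF8 moved least, while SPI1 went from -0.51 to -0.28, IKZF1 from 0.14 to 0.01 and MEF2C from 0.16 to 0.03.

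The copanlisib effect differed between the 3 times for 8 of the 10 genes, beside 18.6% of all genes (joint edgeR test with 2 contrasts). The adjusted p was 9.24e-08 for SPIB, 0.000296 for IRF8, 0.000951 for POU2AF1, 0.00104 for POU2F2, 0.00128 for SPI1, 0.00607 for PAX5, 0.0236 for MEF2C and 0.0249 for EBF1. IKZF1 (adjusted p = 0.184) and BACH2 (adjusted p = 0.596) did not pass. Between 8 and 12 h alone, the effect differed for 0 of the 10 genes and for 9 of all 16122 genes (edgeR). That shift was 0.36 ± 0.09 for SPIB (adjusted p = 0.2) and 0.18 ± 0.08 for EBF1 (adjusted p = 0.597). The differences called for the 10 genes were thus between 4 h and the later times. The count of the joint test was 5 with a GC offset, where 2128 of all 16122 genes were called, against 2996 without it. With replicate 3 alone PAX5, SPI1, EBF1 and MEF2C lost the call, with adjusted p of 0.152, 0.0811, 0.0909 and 0.423. With a GC offset SPI1 (adjusted p = 0.151), EBF1 (0.165) and MEF2C (0.824) lost the call. EBF1 and MEF2C also lost it when some single libraries were left out, with adjusted p up to 0.0897 and 0.0944. From 4 to 12 h the effect moved upward for 6 genes, PAX5, SPIB, SPI1, IRF8, POU2AF1 and POU2F2, and downward for none, beside 16.7% of all genes (8.98% and 7.69%). With replicate 3 alone this shift was 0.18 for PAX5 and 0.17 for POU2AF1, against 0.28 and 0.25 with all libraries. The count was 5 with a GC offset, where 2175 of all 16122 genes were called, against 2688 without it. There SPI1 went from 0.54 to 0.19 and did not pass (adjusted p = 0.0764). Genes were also split by GC content into groups 1 (lowest) to 5 (highest). PAX5, SPIB, IRF8, POU2AF1 and POU2F2 were in GC group 4 and SPI1 in GC group 5. EBF1 was in GC group 2, IKZF1 and BACH2 in 3 and MEF2C in 1. From 4 to 12 h the median log2 fold change over all genes moved from -0.05 to 0.04 in group 4. In group 5 it moved from -0.21 to 0.05. The 6 upward calls, with shifts of 0.25 to 1.14, were in these 2 GC groups. Whether GC content had a part in them was not tested. Averaged over the times, 5 genes rose (PAX5, EBF1, POU2AF1, POU2F2 and BACH2) and 2 fell (SPI1 and IRF8), beside 24.5% and 25.6% of all genes and 50.1% in either direction. Of these, BACH2 passed the low count filter only through copanlisib libraries, where it was high.

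The genes also moved in DMSO alone, where 9 of the 10 changed over time, as did 51.9% of all genes. Between 4 and 12 h in DMSO, where 48.6% of all genes changed, MEF2C rose by 0.39 ± 0.05, EBF1 by 0.38 ± 0.06, PAX5 by 0.35 ± 0.04 and IKZF1 by 0.32 ± 0.05 on the log2 scale. POU2F2 rose by 0.23 ± 0.05 and POU2AF1 by 0.15 ± 0.04, while SPIB fell by 0.63 ± 0.06, IRF8 by 0.37 ± 0.04 and SPI1 by 0.27 ± 0.07. The adjusted p over the 3 DMSO times was 0.00315 or less for these 9 and 0.0888 for BACH2. In copanlisib 9 of the 10 changed over time, beside 57.9% of all genes (51.9% between 4 and 12 h), and here PAX5 rose by 0.63 ± 0.04, POU2F2 by 0.55 ± 0.04, SPIB by 0.52 ± 0.06 and POU2AF1 by 0.40 ± 0.04. BACH2 fell by 2.69 ± 0.44 in copanlisib, from 52 to 7 reads in all. IRF8 did not pass the joint test of the 3 copanlisib times (adjusted p = 0.0622), which it passed with DESeq2 (adjusted p = 0.0315), limma-voom (adjusted p = 0.0401) and a GC offset (adjusted p = 6.88e-05). Between 4 and 12 h alone it fell by 0.10 ± 0.04 (adjusted p = 0.0262).

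The lists, targets and markers that follow are given from the fit of all 18 libraries only. Their 4 h counts and values carry the limits of copanlisib replicates 1 and 2 and of GC content described above. They are read beside all genes, of which 17.7% rose and 20.7% fell at 4 h. At 8 h 14.8% rose and 18.3% fell, and at 12 h 13.8% rose and 16.5% fell. Of 20 other transcription factors of the B lineage listed, 18 were tested, and 9 rose and 4 fell at 4 h, 7 rose and none fell at 8 h, and 6 rose and 2 fell at 12 h. Their medians were 0.24, 0.07 and 0.11, and the 7 calls at 8 h stand beside 33.1% of all genes. ETS1, an ETS factor that restrains plasma cell formation, rose from 82.2 to 139 CPM at 4 h (0.76, adjusted p = 1.78e-11), and its log2 fold changes of 0.59 and 0.50 at 8 and 12 h passed as well. ETV6, an ETS repressor, rose by 0.55, 0.31 and 0.35. LMO2, a LIM-domain bridging factor, fell at 4 h (-1.88, adjusted p = 0.00104) and 12 h (-2.07, adjusted p = 0.000422), at a level below 1 CPM. KLF2, a target of FOXO factors, rose at 8 h (1.28, adjusted p = 0.0261), also at low level. Of 14 tested relatives of the 10 genes, 8 rose and 2 fell at 4 h, 5 rose and 1 fell at 8 h, and 5 rose and none fell at 12 h, beside 38.4%, 33.1% and 30.3% of all genes called. IRF4, the relative of IRF8 that drives plasma cell formation, rose by 0.21, 0.24 and 0.37 while IRF8 fell, from 482 to 622 CPM at 12 h. IKZF2 rose by 0.71, 0.43 and 0.45, and PAX8 by 0.54, 0.31 and 0.32.

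Genes known as targets of these factors split in direction. Of 11 genes that PAX5 activates, 3 rose and 4 fell at 4 h, 5 rose and 1 fell at 8 h, and 4 rose and none fell at 12 h. CD79A, a chain of the B cell receptor, was at -0.01 at 4 h (adjusted p = 0.882) and rose by 0.26 at 8 h and 0.51 at 12 h. CD72, a coreceptor, rose by 0.26, 0.38 and 0.28. BLNK, an adaptor of the receptor, rose by 0.44 at 4 h, and its values of 0.12 and -0.008 did not pass later. VPREB3 rose at 8 h alone (0.65, adjusted p = 0.00486). Of 8 tested genes that PAX5 represses, 3 rose and 3 fell at 4 h, and 3 rose and 2 fell at 8 and at 12 h. JCHAIN, the joining chain of antibodies, rose by 0.61, 0.67 and 0.95, and the receptor kinase FLT3 by 0.63, 0.43 and 0.36. CCL3, a chemokine, fell by 2.18, 1.73 and 2.01, from 26.5 to 5.82 CPM at 4 h. The medians were -0.05, 0.15 and 0.12 for activated and -0.03, 0.02 and 0.01 for repressed genes.

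Of 4 tested targets of POU2F2 and POU2AF1, 2 rose at 4 h, and 1 rose and 1 fell at 12 h, while the 8 h log2 fold changes of -0.58 to 0.11 did not pass. MS4A1, which encodes CD20, rose at 4 h (0.35) and at 12 h (0.14, adjusted p = 0.0483), and ELL2, an elongation factor, fell at 12 h (-0.24, adjusted p = 0.00546). All 7 targets of PU.1 and SPI-B were called at 4 h, 4 up and 3 down, and 3 and 4 of them later. NFKB1, a subunit of NF-kB, fell by 0.49, 0.40 and 0.24. FCGR2B, the inhibitory Fc receptor, rose by 0.53 at 4 h and 0.23 at 8 h, and the receptor P2RY10 by 0.24, 0.22 and 0.29.

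Of 9 genes with BACH sites, which BACH factors repress, 1 rose and 6 fell at 4 h, 2 rose and 5 fell at 8 h, and 2 rose and 6 fell at 12 h. SLC7A11, the cystine transporter, fell by 1.03, 1.20 and 1.55, TXNRD1, thioredoxin reductase, by 0.58, 0.45 and 0.45, and GCLM, of glutathione synthesis, by 0.28, 0.34 and 0.40. PRDM1 (BLIMP1), the plasma cell repressor that BACH2 represses, rose by 0.55, 0.23 and 0.46, from 28.3 to 39.0 CPM at 12 h. Of 9 plasma cell genes, 5 rose and 3 fell at 4 h, 3 rose and 2 fell at 8 h, and 3 rose and 3 fell at 12 h. XBP1, the secretory factor, fell by 0.30, 0.14 and 0.37 while PRDM1, IRF4 and JCHAIN rose. The summed level of the plasma cell genes was 1177 to 1201 CPM in DMSO and 1283 to 1349 CPM in copanlisib at 4 h, and 993 to 1030 and 1189 to 1208 CPM at 12 h. IRF4 held the most reads of these genes. Their median log2 fold change was 0.21 at 4 h, 0.03 at 8 h and -0.04 at 12 h.

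Markers of cell types were read beside these groups. Of 13 B cell markers, 6 rose and 1 fell at 4 h, 5 rose and none fell at 8 h, and 6 rose and none fell at 12 h, again beside 38.4%, 33.1% and 30.3% of all genes called. BLK, a kinase of the receptor, rose by 0.45, 0.76 and 0.63, and CD79B by 0.63 at 8 h and 0.90 at 12 h. BANK1 rose by 0.42 at 4 h. The summed level of the 13 markers overlapped at 4 h, with 7357 to 7627 CPM in DMSO and 7137 to 7728 CPM in copanlisib. It also overlapped at 8 h, with 7423 to 7632 and 7588 to 7754 CPM. At 12 h it was 7346 to 7585 CPM in DMSO and 7863 to 8137 CPM in copanlisib. In the same libraries T and NK cell markers summed to 506 to 523 and 663 to 705 CPM, of which TCF7 made up most, and TCF7 rose by 0.28 at 8 h and 0.42 at 12 h. GATA3 rose at 8 and 12 h, at a level below 1 CPM, and NKG7 fell at 4 and 12 h. S100A9, a myeloid marker, rose at 12 h from 0.325 to 1.46 CPM. Of 12 transcription factors of other lineages 5 were tested, TCF7 and GATA3 among them, and GATA1 and TAL1 were at 0 in every library. The part of such genes in the results for the 10 factors was not tested.

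The genes whose 3 log2 fold changes lay nearest to those of IRF8, among 9893 genes whose mean log2 CPM was 3 or more, were GNL1, RELL2, HSPBP1, ATP6V0B and ZYX, at distances of 0.037 to 0.046. HSPBP1, for example, had -0.47, -0.17 and -0.18. For BACH2 the nearest were PIK3CG, TP63, CHRNA6, ZNF253 and METTL7A, at distances of 0.61 to 0.83 among 9894 genes. The 3 BACH2 values had SEs of 0.36, 0.42 and 0.70, from 1 to 23 reads per library. Distances of this size therefore cannot tell which genes lie nearest to it. PIK3CG, a catalytic subunit of PI3K, had 1.23, 0.63 and 0.29.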

How the data were processed

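Libraries were grouped by the treatment, time and replicate number in the labels. The deposited values are read counts per gene and strand; per the submitters' processing notes, reads were processed with CASAVA 1.7 and STAR 2.5.2b on hg38, with gene models not given in the sources used here. For the main fit, the deposited counts of the strand that held 94.3 to 95.3% of strand-assigned gene reads were used. At the 10 genes the opposite strand held 0 to 0.538% of the reads of both strands. Unmapped, multimapped and unassigned reads were left out. Depth was 13587017 to 25566761 gene reads per library.

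Genes passing edgeR's low count filter (16122) were fitted over all 18 libraries with 1 mean per group (edgeR 4.0.16 on R 4.3.3, TMM scaling, quasi-likelihood tests, two-sided, Benjamini-Hochberg over all genes tested); the SE comes from the F statistic. Scripts were tested on simulated data. CPM and RPKM were computed from the counts and GENCODE 29 exon lengths. Alternatives were DESeq2 1.42.0, limma 3.58.1 (voom), DESeq2 size factors, no low count filter, counts without strand, a replicate block, a GC offset (lowess over the 99.27% of tested genes with a GC value), both together, single times, left-out libraries and an adjusted p under 0.01. The 10 genes and all lists were chosen with earlier results of these data known. Up to 4 genes per list are named, those with the highest absolute average log2 fold change past the threshold, and for the genes with the highest and lowest average the 5 nearest by Euclidean distance over the 3 times. Promoter windows were searched on both strands for ATGCAAAT (octamer), GTAAACA (FOXO), GGAAGT (ETS), TGANTCA (AP-1), TATAAA and GGGCGG; the last pair was added after the sequences were seen, and no 2 matches in the printed windows overlap.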

Additional observations from a re-analysis of the deposited data

Results flagged for a closer look

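The copanlisib effect differed between 4, 8 and 12 h, by a test of that difference over 18 libraries (edgeR, adjusted over 16122 genes), for 8 of the 10 genes. Between 8 and 12 h alone it differed for 0 of the 10 genes. The adjusted p of the test over the 3 times was 9.24e-08 for SPIB, which fell at 4 h and rose at 12 h. It was 0.000296 for IRF8, whose fall was deepest at 4 h. It was 0.000951 for POU2AF1, 0.00104 for POU2F2 and 0.00607 for PAX5, whose log2 fold changes were higher at 8 and 12 h than at 4 h. It was 0.00128 for SPI1, 0.0249 for EBF1 and 0.0236 for MEF2C, each of which was called at 4 h and not at 8 h. With a GC offset SPI1 (adjusted p = 0.151), EBF1 (0.165) and MEF2C (0.824) did not pass. With replicate 3 as the only 4 h copanlisib library, PAX5 (adjusted p = 0.152), SPI1 (0.0811), EBF1 (0.0909) and MEF2C (0.423) did not pass.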

How the results depend on the processing

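Of 1635 values of single genes recomputed under an alternative, 1532 kept direction and side of the threshold, 54 lost the call, 23 gained it and 26 changed sign, none of them to a call in the other direction. The number of genes called at 4 h was 9, but 5 with the 6 libraries of 4 h alone, and that at 8 h was 5, but 7 with the 6 libraries of 8 h alone (SPIB and MEF2C gained). The number whose effect differed between the times was 8, but 5 with a GC offset and 5 with the replicate block and GC offset together. Over all 16122 genes these numbers were 2996, 2128 and 2129. The fit with replicate 3 as the only 4 h copanlisib library assumes that the lone library varies like the other groups. In it the 12 h minus 4 h value of SPI1 went from 0.54 to 0.30 and that of MEF2C from -0.18 to -0.06. Leaving out 1 library at a time gave 7 to 9 called genes at 4 h, 4 to 5 at 8 h, 6 at 12 h, 6 to 8 for the average, 6 to 9 for the difference between the times and 6 to 8 for 12 h minus 4 h, 9 to 10 for DMSO over time and 8 to 10 for copanlisib over time. Over all genes these fits called 4903 to 7857 at 4 h, 4312 to 4501 at 8 h and 3909 to 4135 at 12 h. For the difference between the times they called 1551 to 6557. Numbers did not pair the libraries: same-numbered copanlisib and DMSO libraries correlated at -0.0337 to 0.101, and a replicate block left 9, 5 and 6 genes called at 4, 8 and 12 h and 7 in place of 6 for 12 h minus 4 h (MEF2C, adjusted p = 0.0461). The sign changes follow, and the cause was not tested. With a GC offset, and with it and the block together, MEF2C had 0.00849 and 0.008577 at 8 h and 0.039 and 0.03908 at 12 h. Likewise SPI1 had -0.002837 and -0.003714 and IKZF1 -0.00976 and -0.009323 at 12 h, and EBF1 0.03889 and 0.03945 for 12 h minus 4 h. Left-out libraries gave SPI1 -0.06416 to 0.0005174 at 8 h and -0.007025 to 0.06538 at 12 h, IKZF1 -0.022 to 0.02287 at 12 h, and BACH2 -0.354 to 0.6427 at 12 h. They gave averages of -0.001925 to 0.03488 for MEF2C and -0.02141 to 0.0283 for SPIB. With replicate 3 alone the averages were -0.003928 for IKZF1 and -0.02672 for MEF2C. Counts of 1 to 23 reads limit every value of BACH2.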
